A study of Mus musculus with 20 samples.

Results

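The genes described here are 37 mouse genes of DNA crosslink repair and homologous recombination, the Fanc genes and the genes that act with them on crosslinked or broken DNA. They were taken by name from the deposited gene tables, all 37 were found, and they stand among 23853 gene symbols common to the 3 ages measured. RNA was sequenced from male germ cells that were either Tex15 knockout (Tex15-/-, both copies lost) or Tex15 heterozygous (Tex15+/-, 1 copy lost), so the comparison group also carries a mutant allele. The cells came from embryonic day 16.5 (e16.5), embryonic day 18.5 (e18.5) and postnatal day 2 (d2). Each genotype had 3 libraries for each of the embryonic days and 4 for the postnatal day, which makes 20. All groups shared a mixed strain background and a green fluorescent marker (GFP) used to sort the cells, whose promoter the labels do not name. The series text calls the replicates biological, but no label says whether each is a separate animal or a pool, so p-values measure only the spread between these samples, which may in part be technical.

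The Fanconi pathway repairs covalent links between DNA strands. A core complex of FANC proteins, recruited by FANCM, attaches ubiquitin to the FANCD2-FANCI pair, and USP1 takes it off again. Homologous recombination then copies the lost sequence from an intact duplex: MRE11, RAD50, NBN and CtIP (Rbbp8) trim the broken ends, RPA coats the exposed strand, and BRCA1, PALB2 and BRCA2 act on it next. Mouse germ cells lean on both systems, since Fanconi mutants lose germ cells early and meiosis repairs its own programmed breaks by recombination. TEX15 is known in mice for its part in meiotic recombination and for silencing transposable elements in fetal male germ cells.

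Libraries held 7.78 to 14.2 M (mega) counts in genes out of 14.3 to 31.5 M in all, and each member had between 16 and 12430 counts in every library. Values are counts-per-million (CPM) of the gene counts with TMM scaling, a level within the library's gene counts. Tex15 itself had 1.70 to 5.33 CPM in 9 of 10 knockout libraries and 612 to 2101 CPM in heterozygous libraries. The library labelled knockout d2 replicate 2 held 101.5 CPM of Tex15, so the d2 genotype tests of named repair genes and of Fancd2os are also given without it. Those of single marker genes are not. Germ cell markers (11 genes such as Ddx4 and Dazl) summed to 4021 to 7530 CPM. The 10 Sertoli markers summed to 29.2 to 93.0 CPM, the Leydig marker Insl3 was at 0 in every library and so were the 4 globin genes listed.

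Fancd2, the ubiquitin target at the centre of the Fanconi pathway, was the member that stood apart between genotypes. It was higher in knockout cells at e18.5 and d2, where it passed the test across all genes. Its values at e16.5 overlapped between genotypes. No other member passed in the edgeR fit reported for each age, so none passed as lower in knockout cells there.

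At e18.5 Fancd2 had 109, 170.4 and 142 CPM in the knockout libraries, against 68.3, 93.9 and 70.9 CPM in the heterozygous libraries. The groups did not overlap, and the lowest knockout library lay above the highest heterozygous one. The log2 fold change was 0.85 with a standard error (SE) of 0.17, or 1.80-fold (edgeR quasi-likelihood test, adjusted p = 0.00629, higher in 3 of 3 knockout libraries). The gene was the 1 member of 37 called higher, where 2.06% of 18075 genes tested were called higher and 0.271% lower. Called means a Benjamini-Hochberg adjusted p under 0.05 over all genes tested. Without knockout replicate 2, the library with the most Fancd2, the log2 fold change was 0.69 and the call was lost (edgeR adjusted p = 0.0803). In these sorted bulk samples fewer cells of a type and less RNA per cell cannot be told apart.

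At d2 Fancd2 had 155, 113, 147 and 128 CPM in the knockout libraries, against 72.7, 88.5, 74.6 and 53.9 CPM in the heterozygous libraries. Again all knockout values lay above all heterozygous ones. The log2 fold change was 0.90 (SE 0.16), or 1.87-fold (edgeR adjusted p = 0.00225, higher in 4 of 4 knockout libraries). It was the 1 member called, where 2.03% of 15343 genes were called higher and 0.776% lower. Without knockout replicate 2 the log2 fold change was 0.98 (edgeR adjusted p = 0.00211). The call held in each of the alternative settings and left-out libraries tried, with adjusted p values of 8.48e-06 to 0.0163.

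At e16.5 Fancd2 had 258, 304 and 332 CPM in the knockout libraries, against 269.9, 287 and 223 CPM in the heterozygous libraries. The groups overlapped and the log2 fold change was 0.17 (SE 0.14, edgeR adjusted p = 0.751). Whether the knockout effect itself differed between ages was tested as an interaction over all 20 libraries. It was larger at e18.5 than at e16.5 by 0.65 on the log2 scale (SE 0.25), which was not called (edgeR adjusted p = 0.618). Between d2 and e18.5 it differed by 0.05 (SE 0.24, edgeR adjusted p = 0.961).

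**Figure D1:**
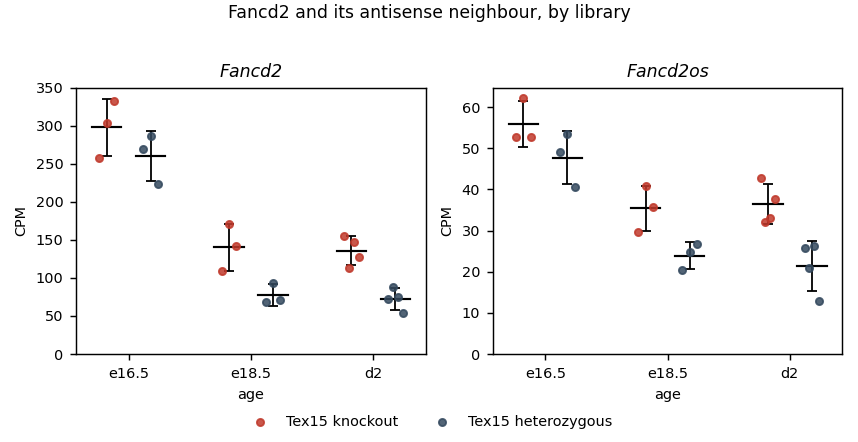
Levels of Fancd2 and of Fancd2os in CPM (linear axes) in each library by age. Points are libraries, knockout in red left of heterozygous in blue, with bars for the mean and SD; Fancd2 lies at 109 CPM or above in knockout and at 93.9 CPM or below in heterozygous cells at e18.5, and at 113 CPM or above against 88.5 CPM or below at d2.

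Fancd2os is a gene on the opposite strand that shares 256 exon bases with Fancd2, 4.64% of the exon bases of Fancd2 in the GENCODE M21 annotation. The sources used here do not say whether reads were counted by strand, so reads of the shared bases cannot be assigned to one of the pair. Fancd2os had 29.7, 40.8 and 35.6 CPM in knockout libraries at e18.5, against 20.3, 24.8 and 26.7 CPM in heterozygous libraries (log2 fold change 0.56, SE 0.20, edgeR adjusted p = 0.198). At d2 it had 42.8, 32.0, 33.2 and 37.6 CPM in knockout libraries, against 25.7, 20.9, 26.2 and 12.9 CPM in heterozygous libraries (log2 fold change 0.76, SE 0.23, edgeR adjusted p = 0.082). Without knockout replicate 2 the d2 log2 fold change was 0.82 (edgeR adjusted p = 0.0704). Its groups did not overlap at either age, but it was not called in the reported edgeR fits of each age alone. At d2 it was called with DESeq2 and with all 20 libraries in 1 fit.

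Some markers of other cells and of cell state differed between the same groups. The 8 macrophage and white blood cell markers summed to 103.4 to 127 CPM in knockout cells at e18.5 and to 43.2 to 67.7 CPM in heterozygous cells, with none at 0 throughout. These markers did not rise together: of 6 tested, 4 had a positive and 2 a negative log2 fold change. The 2 called higher, where 2.06% of all genes were, were Mrc1 and Adgre1. Mrc1 averaged 72.9 CPM in knockout and 21.8 CPM in heterozygous cells, and Adgre1 13.65 and 3.85 CPM. The stroma marker Dcn was also called higher, at 5.78 and 1.75 CPM, while 6 of 10 stroma markers tested had a negative log2 fold change. At d2 the germ cell markers summed to 4328 to 5719 CPM in knockout and 4021 to 4484 CPM in heterozygous libraries, and Sertoli markers to 63.0 to 81.8 CPM against 78.9 to 93.0 CPM. Dazl and Sycp3 were called higher in knockout cells, where 2.03% of all genes were. Dazl averaged 2423 CPM in knockout and 1584 CPM in heterozygous cells, and Sycp3 217 and 140 CPM. Of 11 germ cell markers 7 had a positive and 4 a negative log2 fold change. The 25 DNA replication and proliferation genes summed to 4823 to 6963 CPM in knockout and 2809 to 6351 CPM in heterozygous libraries at d2, and to 1180 to 1552 and 1170 to 1583 CPM at e18.5. Without knockout d2 replicate 2 the knockout sums at d2 were 5035 to 5719 CPM for germ cell markers, 63.0 to 80.8 CPM for Sertoli markers and 6464 to 6963 CPM for replication genes. The part of these differences in the Fancd2 result was not tested.

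At e16.5 none of the 37 members was called between genotypes by edgeR, and none by DESeq2, and 1 member had an unadjusted edgeR p under 0.05, where 7.73% of genes did. Tex15 was the 1 gene called of 16384, which is 0.0061%. Rpa2, the middle subunit of the RPA single-strand binding complex, had 115, 137 and 122 CPM in knockout libraries, against 96.5, 91.7 and 82.4 CPM in heterozygous libraries. Its groups did not overlap, but with a log2 fold change of 0.44 (SE 0.13) it was not called (edgeR adjusted p = 0.629). Rad54l, a motor protein that acts on duplex DNA during recombination, had 39.9, 41.6 and 46.4 CPM in knockout libraries, against 35.9, 32.5 and 34.6 CPM in heterozygous libraries (log2 fold change 0.29, edgeR adjusted p = 0.664). Mus81, a junction-cutting nuclease, had 4.69, 3.23 and 4.85 CPM in knockout libraries, against 6.53, 5.82 and 7.54 CPM in heterozygous libraries (log2 fold change -0.66, edgeR adjusted p = 0.644). These 3 were the members whose groups did not overlap, 2 higher and 1 lower, where 7.21% of genes were higher and 6.07% lower without overlap. At e16.5 stroma markers summed to 128.8 to 162 CPM in knockout and 149 to 307 CPM in heterozygous libraries, and their part in these values was not tested.

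At e18.5 the member nearest the threshold after Fancd2 was Brca2, the breast cancer gene whose protein acts on single-stranded DNA in recombination. It had 376, 364 and 345 CPM in knockout libraries, against 437, 480.1 and 547 CPM in heterozygous libraries. All knockout values lay below all heterozygous ones, with a log2 fold change of -0.44 (SE 0.12) that narrowly missed the threshold (edgeR adjusted p = 0.0516). Apart from the replicate block, it was called with DESeq2 (adjusted p = 0.0228), with no filter on low counts (edgeR adjusted p = 0.0411) and without heterozygous replicate 1 (edgeR adjusted p = 0.045). Rad50, the long coiled-coil arm of the break-binding MRN complex, had 699, 791 and 764 CPM in knockout libraries, against 554, 602 and 619 CPM in heterozygous libraries (log2 fold change 0.34, SE 0.11, edgeR adjusted p = 0.125). Bard1, the partner that makes BRCA1 an active ubiquitin ligase, had 35.1, 36.95 and 37.9 CPM in knockout libraries, against 34.3, 25.2 and 22.7 CPM in heterozygous libraries (log2 fold change 0.41, SE 0.19, edgeR adjusted p = 0.424). In all, 4 members lay higher without overlap (Fancd2, Fancl, Bard1 and Rad50), where 9.42% of genes did. Another 6 lay lower (Fanca, Brca1, Brca2, Palb2, Rad52 and Xrcc3), where 7.34% of genes did. BRCA1, PALB2 and BRCA2 form a chain of binding partners at breaks. Brca1 averaged 101.5 ± 6.603 CPM in knockout and 113 ± 5.17 CPM in heterozygous cells (SD, n = 3 each). Palb2 averaged 49.3 ± 3.52 CPM in knockout and 53.8 ± 0.165 CPM in heterozygous cells (SD, n = 3 each). Neither was called.

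At d2 Rad50 was the member closest to the threshold among those not called. It had 660.2, 679, 841 and 749 CPM in knockout libraries, against 516, 573, 611 and 506 CPM in heterozygous libraries. The groups did not overlap and the log2 fold change was 0.41 (SE 0.11, edgeR adjusted p = 0.0547). It was called with DESeq2 (adjusted p = 0.0235) and without knockout replicate 2 (edgeR adjusted p = 0.0458). Rbbp8, encoding the resection factor CtIP, had 152, 169, 182 and 142 CPM in knockout libraries, against 129.8, 117, 135 and 130.4 CPM in heterozygous libraries (log2 fold change 0.33, SE 0.13, edgeR adjusted p = 0.189, and 0.236 without knockout replicate 2). Atm, the kinase that signals double-strand breaks, had 693, 390.4, 668 and 584 CPM in knockout libraries, against 451, 484, 489 and 289 CPM in heterozygous libraries. These groups overlapped through knockout replicate 2, and the log2 fold change was 0.44 (SE 0.18, edgeR adjusted p = 0.211). Without that library it was 0.59 and Atm was called (edgeR adjusted p = 0.036).

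Fancd2, Rad50, Nbn and Rbbp8 were the 4 members higher in knockout cells without overlap at d2, where 5.38% of genes were, and no member was lower without overlap, where 4.33% of genes were. Rad50, Nbn and Rbbp8 belong to the 5 end resection genes, of which none was called between genotypes at d2. Mre11a and Exo1, of the same role, overlapped between genotypes. Mre11a averaged 74.7 CPM in knockout and 70.85 CPM in heterozygous cells, and Exo1 92.5 and 87.3 CPM. Without knockout replicate 2, a comparison added after seeing the data, 8 members were higher without overlap (Atm, Brca2, Brip1 and Xrcc2 added), where 10% of genes were, and none was lower, where 7.26% were. Nbn, the MRN subunit that recruits ATM, had 61.3, 71.6, 60.5 and 58.1 CPM in knockout libraries, against 46.7, 45.9, 58.0 and 46.5 CPM in heterozygous libraries. Its log2 fold change was 0.35 (SE 0.16, edgeR adjusted p = 0.278) with all libraries and 0.28 (edgeR adjusted p = 0.408) without knockout replicate 2. Counting signs alone, 28 of 37 members (75.7%) had a positive log2 fold change at d2, with a median of 0.13, and 47.9% of all genes tested did, with a median of -0.02. Without knockout replicate 2 the shares were 73% and 46%, with medians of 0.17 and -0.04. At e18.5 the share was 40.5% of members and 48.7% of all genes, with medians of -0.06 and -0.01. At e16.5 it was 62.2% and 48.9%, with medians of 0.06 and -0.01. The members' log2 fold changes ran from -0.66 to 0.44 at e16.5, from -0.55 to 0.85 at e18.5 and from -0.32 to 0.90 at d2.

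**Figure D2:**
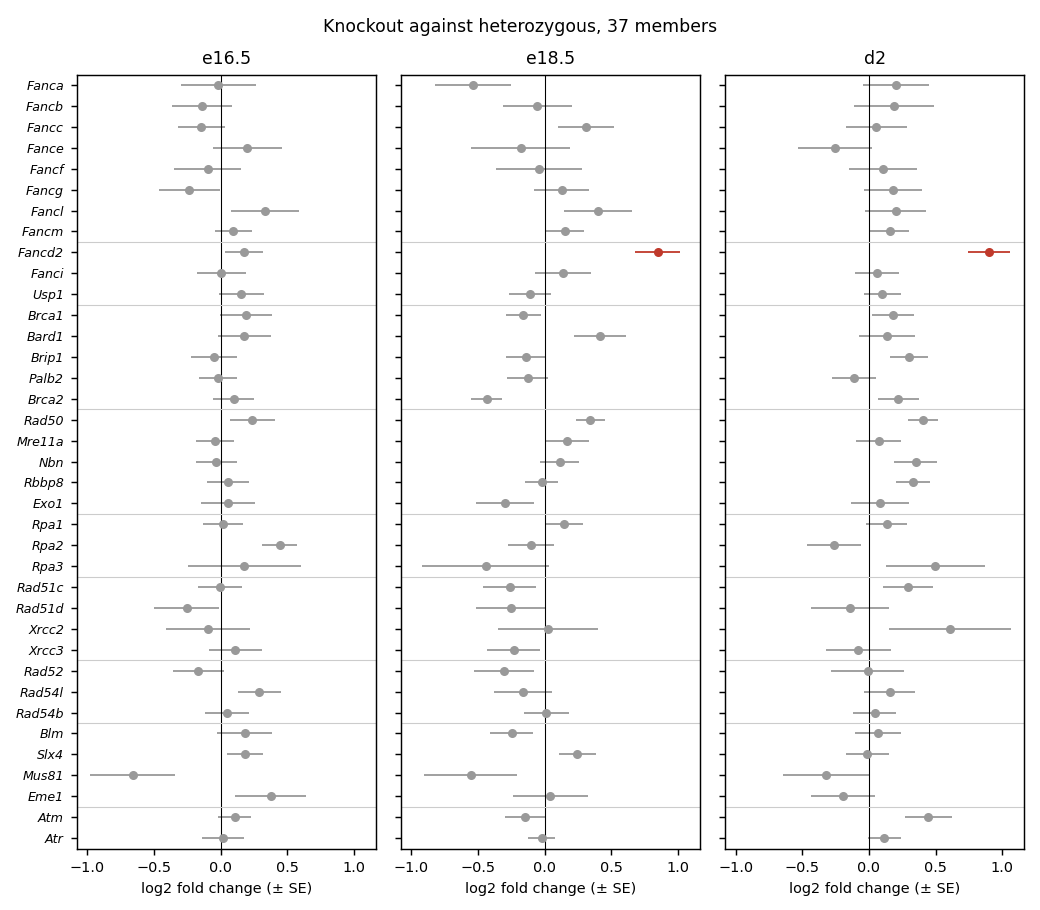
Log2 fold change (knockout over heterozygous) with its SE for all 37 members at each age, on one shared linear axis, with members ordered by role and pale lines between roles. Red marks a call at an adjusted p under 0.05: Fancd2 at e18.5 (0.85) and at d2 (0.90), with the other members in grey.

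**Figure D3:**
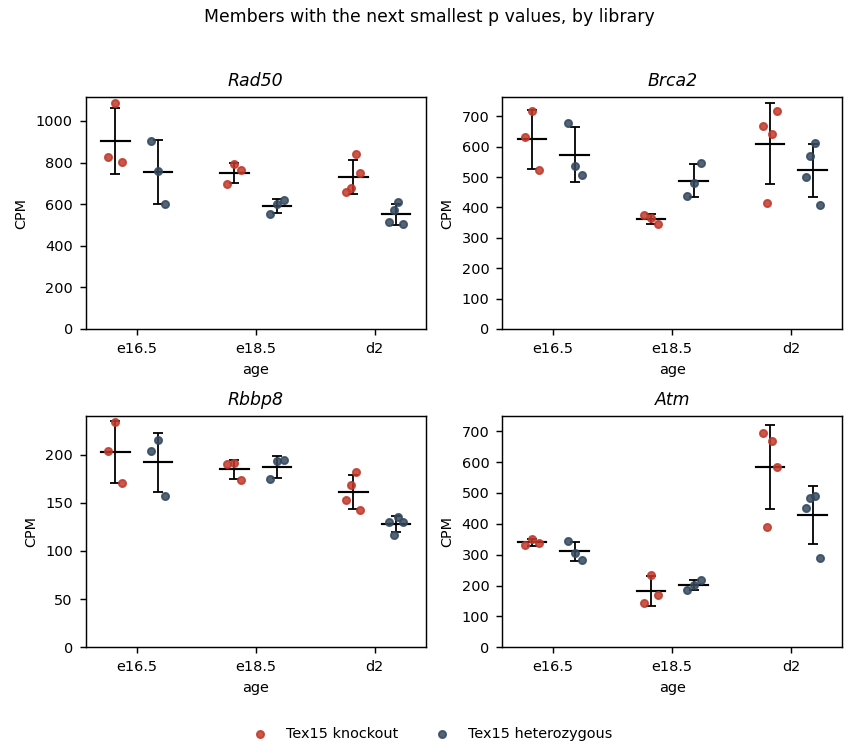
Levels in CPM (linear axes) of Rad50, Brca2, Rbbp8 and Atm in each library by age, knockout in red left of heterozygous in blue, with mean and SD. Rad50 is at 660.2 CPM or above in knockout and at 611 CPM or below in heterozygous libraries at d2, and Brca2 is at 376 CPM or below against 437 CPM or above at e18.5.

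No member was called by edgeR or by DESeq2 in either test of whether the knockout effect changed with age, where 0.0967% of 18619 genes were called between e18.5 and e16.5 and 0.526% between d2 and e18.5. In edgeR 2 members had an unadjusted p under 0.05 in the first test, where 6.4% of genes did, and 4 in the second, where 13.5% did. Brca2 had the smallest p in the second, with an effect that was higher at d2 than at e18.5 by 0.66 on the log2 scale (SE 0.23, edgeR adjusted p = 0.180). Its d2 values were 667, 415, 640.1 and 716 CPM in knockout libraries, against 501, 567.7, 611 and 408 CPM in heterozygous libraries. Without knockout d2 replicate 2, the lowest of those knockout values, this 1 member was called. No other of the 20 fits with 1 library left out called a member in this test. Over all genes these fits called 31 to 226 genes, against 98 with all libraries. The 2 tests share the e18.5 libraries.

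More members were called with age than with genotype, and the same was true over all genes. With age 3305 (e18.5) and 9522 (d2) genes were called, and between genotypes 1, 422 and 430 at e16.5, e18.5 and d2. The age calls came from the joint fit of 20 libraries and the genotype calls from fits of each age alone. In heterozygous cells 11 members fell and 1 rose between e16.5 and e18.5, and 16 rose and 5 fell between e18.5 and d2. At e18.5 the 11 lower members were 29.7% of the 37, where 10.1% of 18619 genes were called lower and 7.62% higher. At d2 the 16 higher members were 43.2%, where 24.1% of genes were called higher, and the 5 lower members were 13.5%, where 27.0% of genes were called lower. The median log2 fold change of the members was -0.33 at e18.5 and 0.19 at d2, and that of all genes was 0.04 and -0.08. Of the 37 members, 6 were called lower and then higher (Brca1, Bard1, Rad54b, Mre11a, Rpa1 and Atm), though the first call of Bard1 and the second of Rpa1 were lost in many alternatives. Another 10 were called higher at d2 alone and 12 were called at neither step. Slx4 fell at both steps, and Atr rose and then fell. Each age was deposited as its own table, so age and the handling of a table cannot be told apart at either step. The e16.5 and e18.5 tables list 1 set of gene symbols and the d2 table another.

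The promoters of 28 members are in the RefSeq promoter table for GRCm38.p6, and 4 are shown because their genes differ in the steps at which they were called. Rpa2 was called higher at d2 alone, though its e18.5 libraries also lay below its e16.5 libraries without overlap. Brca1 and Bard1 were called lower at e18.5 and higher at d2, the first call of Bard1 being lost in many alternatives. Fancb was called lower at d2 alone. Each line gives the 250 bases before the start of the gene, 5′ to 3′ on its own strand, with matches to TTCCCGC and TTGGCGC, and also to CCAAT, on either strand in capitals.
Rpa2 (chr4:132768110-132768359, plus strand): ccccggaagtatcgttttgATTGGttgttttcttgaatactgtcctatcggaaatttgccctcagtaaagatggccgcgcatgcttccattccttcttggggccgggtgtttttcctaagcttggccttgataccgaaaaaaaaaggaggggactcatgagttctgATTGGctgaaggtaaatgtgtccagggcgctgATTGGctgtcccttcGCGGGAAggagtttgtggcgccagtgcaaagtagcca
Brca1 (chr11:101551956-101552205, minus strand): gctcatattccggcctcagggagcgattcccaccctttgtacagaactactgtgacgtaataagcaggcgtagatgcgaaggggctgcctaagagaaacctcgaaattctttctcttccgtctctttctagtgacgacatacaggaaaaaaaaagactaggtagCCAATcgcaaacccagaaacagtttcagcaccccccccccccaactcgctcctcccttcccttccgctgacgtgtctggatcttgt
Bard1 (chr1:71102973-71103222, minus strand): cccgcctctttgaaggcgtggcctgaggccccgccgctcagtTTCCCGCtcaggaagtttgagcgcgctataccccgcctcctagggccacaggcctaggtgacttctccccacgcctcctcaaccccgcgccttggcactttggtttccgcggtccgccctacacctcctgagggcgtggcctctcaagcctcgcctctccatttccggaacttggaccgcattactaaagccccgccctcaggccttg
Fancb (chrX:164980342-164980591, plus strand): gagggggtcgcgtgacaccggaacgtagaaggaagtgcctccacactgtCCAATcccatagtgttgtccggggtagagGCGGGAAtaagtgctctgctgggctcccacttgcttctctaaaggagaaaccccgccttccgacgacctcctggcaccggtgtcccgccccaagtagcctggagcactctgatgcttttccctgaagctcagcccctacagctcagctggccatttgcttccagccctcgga

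TTCCCGC and TTGGCGC are letters that E2F factors of the cell cycle are known to bind, and CCAAT is the element of the factor NF-Y. At least 1 of the E2F-type words stood in 10 of 28 member promoters (35.7%), in 9.63% of the 14469 tested genes with an entry and in 6.45% of all 27025 entries. CCAAT, which on the opposite strand can overlap TTGGCGC, stood in 17 of 28 (60.7%), in 39.1% of tested genes and in 37.5% of all. Of the 13 members with an entry that rose at d2, 2 held an E2F-type word (Bard1 and Rpa2) and 9 held CCAAT. Of the 3 that fell at d2, 1 held an E2F-type word (Fancb) and 2 held CCAAT. A match is a description of letters and not of binding.

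Among the 8 genes of the Fanconi core complex and its anchor, 1 fell at e18.5 and 3 rose and 1 fell at d2, where 10.1% of all genes fell at e18.5 and 24.1% rose and 27.0% fell at d2. Fance, the subunit that bridges the core complex to FANCD2, had 14.1, 19.8, 13.5 and 9.68 CPM at d2, against 5.61, 5.34 and 5.30 CPM at e18.5. Every d2 library lay above every e18.5 library, and the log2 fold change was 1.40 (SE 0.30, edgeR adjusted p = 0.00033). Fancl, the ubiquitin ligase subunit, and Fanca, a core subunit, rose by 1.10 and 1.02 on the log2 scale. The groups of Fancl did not overlap, but those of Fanca did. Fancl shares 17.0% of its exon bases with Vrk2 and Fanca 8.62% with Zfp276, both on the opposite strand, which strand-blind counting could mix. Fancb, whose protein sits with FANCL in the catalytic module, had 11.9, 8.33, 16.4 and 9.01 CPM at d2, against 14.1, 14.7 and 25.7 CPM at e18.5. Its log2 fold change of -0.67 (SE 0.28) passed by little (edgeR adjusted p = 0.0474), the groups overlapped, and the call was lost in 11 alternatives, among them the fit without e18.5 replicate 3, the highest library (log2 fold change -0.35, edgeR adjusted p = 0.367). Fancc, another core subunit, fell at e18.5 by 0.70 on the log2 scale. Fancf, Fancg and Fancm were called at neither step.

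In the FANCD2-FANCI pair, Fancd2 and Fanci were called at different steps in heterozygous cells, and their courses were not compared by a test. Fancd2 fell at e18.5, with the per-library values given above, by 1.74 on the log2 scale (SE 0.18), or 3.35-fold (edgeR adjusted p = 1.39e-06). It was not called between d2 and e18.5 (log2 fold change -0.10, SE 0.17, edgeR adjusted p = 0.644). Fanci had 38.1, 52.8, 45.5 and 43.8 CPM at d2, against 27.1, 21.2 and 27.6 CPM at e18.5. It rose by 0.83 on the log2 scale (SE 0.18, edgeR adjusted p = 0.000468) with no overlap. Mean Fanci was 32.2 CPM at e16.5 and 25.3 CPM at e18.5, a fall with overlapping groups that was not called. Usp1, the deubiquitinase of the pair, had 117, 130.7, 140.2 and 116 CPM at d2, against 69.5, 77.2 and 58.6 CPM at e18.5 (log2 fold change 0.88, SE 0.16, edgeR adjusted p = 5.27e-05). Fanci shares 13.4% of its exon bases with Polg on the opposite strand, which strand-blind counting could mix.

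BRCA1 and BARD1 form 1 ubiquitin ligase, and both genes were called lower at e18.5 and higher at d2. Brca1 had 118, 108 and 113 CPM at e18.5, against 225, 179.8 and 124 CPM at e16.5 (log2 fold change -0.64, SE 0.20, edgeR adjusted p = 0.0236). The groups did not overlap, but e16.5 replicate 3 lay close to the e18.5 libraries. At d2 Brca1 had 227, 316, 315 and 186 CPM, 2.31-fold above e18.5 (log2 fold change 1.21, SE 0.19, edgeR adjusted p = 8.68e-06). Bard1 had 34.3, 25.2 and 22.7 CPM at e18.5, against 46.9, 53.25 and 32.2 CPM at e16.5 (log2 fold change -0.69, SE 0.24, edgeR adjusted p = 0.0458). These groups overlapped through e16.5 replicate 3 and e18.5 replicate 1, and the call was lost in 13 of 27 alternatives, 10 of them fits without 1 library, with adjusted p values up to 0.232. At d2 Bard1 had 50.3, 72.0, 73.5 and 38.05 CPM, all above e18.5, a rise of 1.09 on the log2 scale (SE 0.23, edgeR adjusted p = 0.00027). Brip1, a helicase that binds BRCA1, rose at d2 by 0.45. Brca2 and Palb2 were called at neither step, with mean heterozygous levels of 574 ± 91.5, 488 ± 55.3 and 522 ± 88.6 CPM for Brca2 at e16.5, e18.5 and d2 (SD, n = 3, 3 and 4).

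The end resection genes moved in both directions. Exo1, the exonuclease of long-range resection, had 88.9, 104.6, 105.9 and 49.6 CPM at d2, against 20.7, 25.4 and 32.9 CPM at e18.5. No library overlapped, and the rise of 1.73 on the log2 scale (SE 0.24, 3.33-fold, edgeR adjusted p = 2.25e-06) was the largest among members. Mre11a, the nuclease of the MRN complex, had 47.0, 40.8 and 50.4 CPM at e18.5, against 87.2, 81.7 and 71.4 CPM at e16.5 (log2 fold change -0.80, SE 0.18, edgeR adjusted p = 0.00258), and rose again by 0.62 at d2. Its MRN partner Nbn had 46.7, 45.9, 58.0 and 46.5 CPM at d2, against 82.5, 96.0 and 101 CPM at e18.5 (log2 fold change -0.92, SE 0.15, edgeR adjusted p = 1.16e-05). Every d2 library of Nbn lay below every e18.5 library. Rbbp8 fell likewise without overlap, with 129.8, 117, 135 and 130.4 CPM at d2, against 174, 194 and 194 CPM at e18.5 (log2 fold change -0.55, SE 0.13, edgeR adjusted p = 0.00101). Rad50 was called at neither step.

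Among the RPA subunits, Rpa2 rose most. It had 181, 296, 173 and 119.6 CPM at d2, against 60.9, 70.8 and 52.3 CPM at e18.5, a 3.14-fold rise (log2 fold change 1.65, SE 0.21, edgeR adjusted p = 4.21e-07). The lowest d2 library lay above the highest e18.5 library. At e16.5 Rpa2 had averaged 90.2 CPM, against 61.3 CPM at e18.5. That fall had no overlap but was called only in some alternatives. Rpa1, the large DNA-binding subunit, had 62.5, 63.2 and 66.2 CPM at e18.5, against 100.2, 83.4 and 90.9 CPM at e16.5 (log2 fold change -0.52, SE 0.16, edgeR adjusted p = 0.0251). At d2 it had 89.8, 93.1, 84.4 and 60.45 CPM, and replicate 4 lay below the e18.5 libraries. Its log2 fold change of 0.36 (SE 0.15) passed by little (edgeR adjusted p = 0.0484), and the call was lost in 21 of 27 alternatives, DESeq2 among them, with adjusted p values up to 0.133. Rpa3, the small subunit, stayed at 1.65 to 4.97 CPM in heterozygous libraries and was called at neither step.

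Of the 4 genes Rad51c, Rad51d, Xrcc2 and Xrcc3, whose products work in shared complexes in recombination, only Rad51c was called, at e18.5. It had 36.3, 27.6 and 34.5 CPM at e18.5, against 53.7, 42.9 and 53.3 CPM at e16.5, with no overlap (log2 fold change -0.61, SE 0.18, edgeR adjusted p = 0.0208). Rad51d, Xrcc2 and Xrcc3 were called at neither step. Of the RAD52 and RAD54 genes, Rad54b fell at e18.5 and rose at d2. It had 49.2, 41.8 and 42.9 CPM at e18.5, against 78.0, 80.7 and 56.2 CPM at e16.5 (log2 fold change -0.68, SE 0.17, edgeR adjusted p = 0.00738), and its later rise was 0.55. Rad54b shares 39.1% of its exon bases with Fsbp on the same strand. Its motor paralogue Rad54l rose at d2 by 0.81. Rad52 was called at neither step.

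The junction genes Blm and Slx4 both fell at e18.5. Blm, the helicase that dissolves double junctions, had 62.7, 56.1 and 65.2 CPM at e18.5, against 164.9, 147 and 91.9 CPM at e16.5 (log2 fold change -1.13, SE 0.21, 2.19-fold, edgeR adjusted p = 0.000547). Slx4, the scaffold of the junction-cutting nucleases, had 114, 118 and 111 CPM at e18.5, against 171, 169 and 168 CPM at e16.5 (log2 fold change -0.56, SE 0.15, edgeR adjusted p = 0.012). It fell again at d2, to 75.2, 70.9, 68.8 and 53.7 CPM (log2 fold change -0.77, SE 0.14, edgeR adjusted p = 7.82e-05). Its 3 age groups did not overlap. Eme1, the partner of MUS81, rose at d2 by 0.91, and Mus81 was called at neither step. Eme1 shares 9.04% of its exon bases with Lrrc59 and 3.07% with Mrpl27, both on the opposite strand.

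The checkpoint kinases ATM and ATR went opposite ways. Atm had 451, 484, 489 and 289 CPM at d2, against 185, 203 and 216 CPM at e18.5 (log2 fold change 1.09, SE 0.19, edgeR adjusted p = 3.47e-05), after a fall of 0.63 on the log2 scale at e18.5. Atr, the kinase that answers stalled forks and RPA-coated DNA, had 401, 394, 536 and 512 CPM at d2, against 733, 733 and 732 CPM at e18.5. It fell by 0.67 on the log2 scale (SE 0.13, edgeR adjusted p = 0.000128) with no overlap. At e16.5 it had 638, 499 and 511 CPM, below the e18.5 libraries by 0.42 on the log2 scale (SE 0.14, edgeR adjusted p = 0.0394). That call was lost in 7 alternatives, 5 of them fits without 1 heterozygous embryonic library, and its highest adjusted p was 0.173.

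The number of genes called at e18.5 depended on single libraries, both among members and over all genes. The count of members was 12 with all libraries, 5 without heterozygous e16.5 replicate 1, 6 without e16.5 replicate 2 or e18.5 replicate 2 or 3, and 7 without e18.5 replicate 1. Fancd2, Blm, Mre11a and Slx4 were called lower in each of these 5 fits, and the other lower members (Atm, Bard1, Brca1, Fancc, Rad51c, Rad54b and Rpa1) each lost their call in at least 1 of them. Over all genes the e18.5 count was 3305 with all libraries and 1739 to 4077 when single libraries were left out. At d2 the 21 called members became 18 to 21 when single libraries were left out, and the 9522 genes called became 8249 to 9829. Besides Fancb and Rpa1, Brip1 lost its d2 call without heterozygous e18.5 replicate 2 or d2 replicate 3, and Eme1 without heterozygous e18.5 replicate 1 or 2, with adjusted p values up to 0.0797 and 0.0692.

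**Figure D4:**
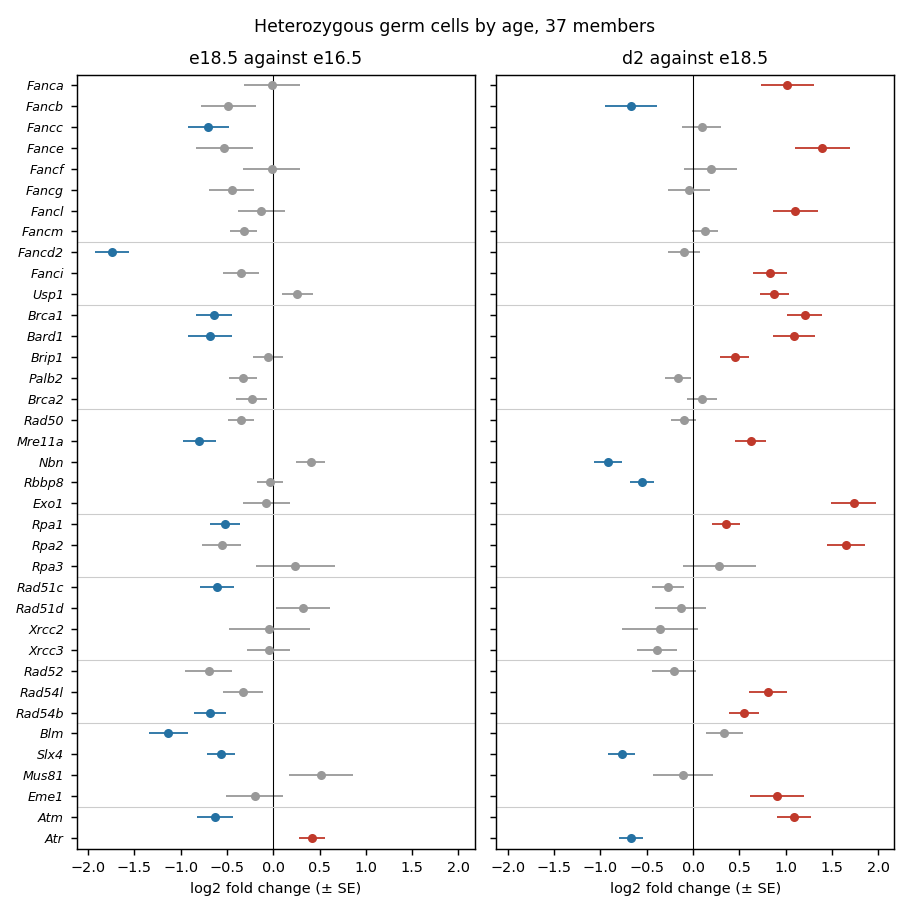
Log2 fold change with its SE for all 37 members in heterozygous cells, e18.5 over e16.5 (left) and d2 over e18.5 (right), on one shared linear axis, ordered by role. Red marks members called higher (1 and 16), blue those called lower (11 and 5) and grey those not called; Fancd2 has the lowest value at e18.5 (-1.74) and Exo1 the highest at d2 (1.73).

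**Figure D5:**
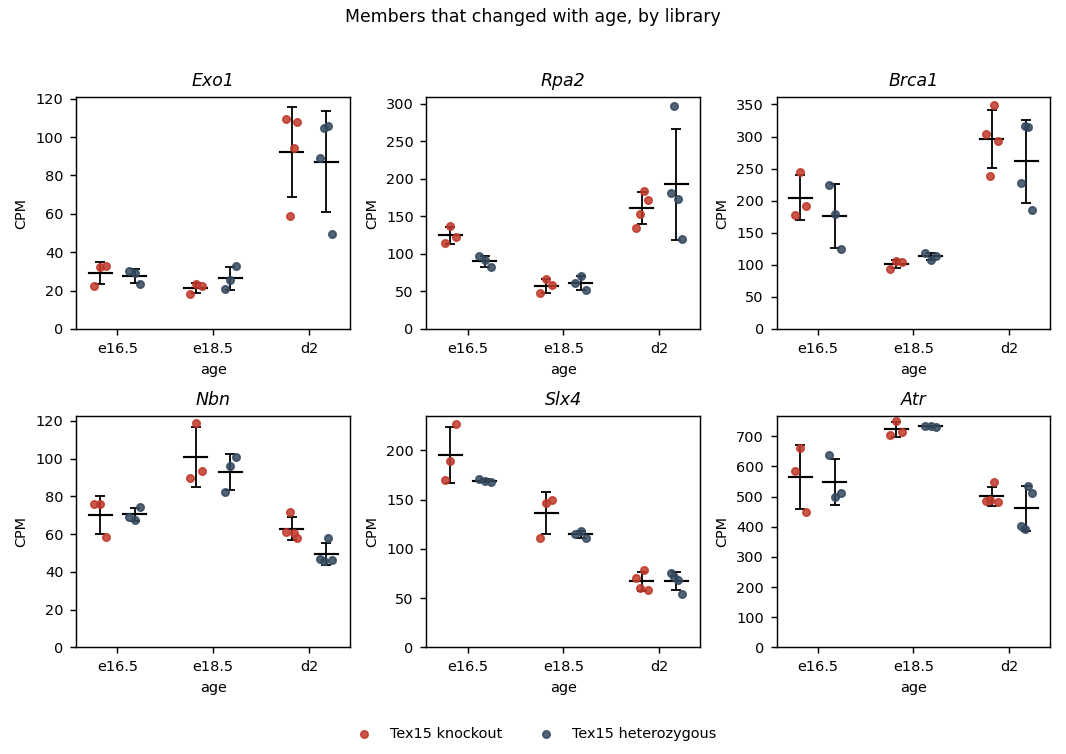
Levels in CPM (linear axes) of 6 members in each library by age, knockout in red left of heterozygous in blue, with mean and SD. Exo1, Rpa2 and Brca1 have their highest means at d2 in both genotypes, while Nbn, Slx4 and Atr have d2 libraries below all e18.5 libraries.

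Knockout cells were compared across ages by overlap alone, with no test. Between e16.5 and e18.5, 20 members lay lower at e18.5 without overlap and 2 higher (Nbn and Atr), where 25.7% of genes lay lower and 29.4% higher. Between e18.5 and d2, 18 lay higher at d2 and 3 lower (Nbn, Slx4 and Atr), where 25.2% of genes lay higher and 30.4% lower. Without d2 replicate 2 the counts were 19 higher and 4 lower (Xrcc3 added), where 28.4% of genes lay higher and 34.3% lower. Exo1 had 109, 58.8, 94.2 and 108 CPM in knockout d2 libraries, against 18.4, 23.4 and 22.3 CPM at e18.5. Rpa2 had 134, 154, 184 and 171 CPM at d2, against 47.5, 66.2 and 58.1 CPM at e18.5. Mean Fancd2 was 298 ± 37.8, 140.2 ± 30.9 and 136 ± 18.9 CPM in knockout cells at e16.5, e18.5 and d2 (SD, n = 3, 3 and 4), so the drop between the embryonic ages was 2.13-fold on the means in knockout cells and 3.35-fold in heterozygous cells. That pair of drops is the interaction given above, which was not called.

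Compared per kilobase of annotated exon, so that long and short genes can be set side by side, Rad50 had the highest level of the 37 in heterozygous cells at each age, with 146, 115 and 107 CPM per kb at e16.5, e18.5 and d2. Atr ranked 2 at both embryonic ages. Rpa2 ranked 2 at d2, at 106 CPM per kb, and 6 at e18.5, at 33.8 CPM per kb. Fancd2 ranked 6, 11 and 14 of 37 in heterozygous cells at the 3 ages. Xrcc2 was last throughout, at 1.08 to 1.43 CPM per kb in heterozygous cells. Library kits of the Ovation type amplify total RNA, so levels per kb describe these libraries and not molecules per cell.

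Genes around the members were read from named lists of the same pathways. Of 37 other homologous recombination genes, 3 rose in knockout cells at d2, where 2.03% of all genes were called higher and 0.776% lower, and none was called at the embryonic ages. Rif1, which limits resection, averaged 698 ± 90.2 CPM in knockout and 466.4 ± 75.8 CPM in heterozygous cells (SD, n = 4 each, log2 fold change 0.58, edgeR adjusted p = 0.0158). Gen1, a junction resolvase, averaged 62.0 ± 12.5 CPM in knockout and 37.7 ± 4.94 CPM in heterozygous cells (log2 fold change 0.71, edgeR adjusted p = 0.0405). Parpbp, which restrains recombination, averaged 41.2 ± 9.58 CPM in knockout and 24.1 ± 2.74 CPM in heterozygous cells (log2 fold change 0.77, edgeR adjusted p = 0.0488). Without knockout replicate 2 their adjusted p values were 0.00548, 0.00906 and 0.0104 in the same order. Over 15 alternatives the call was lost in 4 for Rif1, in 8 for Gen1 and in 8 for Parpbp, most of them fits without 1 other d2 library, with adjusted p values up to 0.0662, 0.14 and 0.168. None of the other Fanconi and crosslink repair, meiotic recombination, end joining or replication genes listed was called between genotypes at any age.

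Beside the following counts with age stand the shares of all genes, 24.1% higher and 27.0% lower at d2 and 7.62% higher and 10.1% lower at e18.5. In heterozygous cells the replication and proliferation list moved most evenly: 24 of 25 genes rose at d2, with a median log2 fold change of 1.75, and 5 fell and 1 rose at e18.5. Rrm2 and Cdc6, a nucleotide synthesis gene and a replication licensing gene, rose by 3.72 and 3.69 on the log2 scale at d2. Among other recombination genes 20 of 37 rose and 2 fell at d2, with Rnf8, a ubiquitin ligase at breaks, up by 2.33 and Topbp1, an activator of ATR, up by 1.54. Of 15 other Fanconi and crosslink repair genes 4 rose and none fell, led by Uhrf1 at 195 ± 69.5 CPM at d2 (n = 4), against 12.4 ± 0.838 CPM at e18.5 (SD, n = 3), so their share called higher was near that of all genes. Of 17 meiotic recombination genes 6 rose and 6 fell, among them Prdm9, which places meiotic breaks, down by 1.59. Of 11 end joining genes 1 rose and 2 fell. Heterozygous d2 replicate 4 had the lowest replication sum of its group, 2809 CPM, against 4898 to 6351 CPM in the other 3 libraries, and it was also the lowest library for Exo1, Rpa2, Brca1, Bard1, Atm and Fancd2. The part of these replication levels in the members' values was not tested.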

How the data were processed

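Counts of reads per gene symbol and per repeat name were deposited by the authors as raw whole numbers, 1 table per age. Per the submitters' processing notes STAR, featureCounts, edgeR and Bowtie were used with the mouse build mm9; versions, strand use and the handling of reads with several matches are not given in the sources used here. Repeat names (1217) were left out of library sizes and tests. A table of estimated repeat family counts was not used. The tables hold 24495 (e16.5, e18.5) and 24341 (d2) gene symbols.

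Each age was fitted alone on genotype with edgeR 4.0.16 in R 4.3.3 (filterByExpr with a minimum count of 10 and a total of 15, TMM factors, robust quasi-likelihood F test, Benjamini-Hochberg adjustment over all genes tested). A joint fit of the 20 libraries on the 23853 common symbols gave the age and interaction contrasts, and its factors gave the printed CPM. All 37 members passed the filter in each fit. The steps were tested on simulated data. Alternatives were DESeq2 1.42.0, median-ratio factors, repeats in the fit, no filter, a filter at 1 CPM, a replicate block, other sets of libraries in the fit and each library left out.

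The members and gene lists were chosen with earlier results of these data known. Named with full values are members called in a genotype or interaction test, the 3 members with the smallest p among those not called per genotype comparison, up to 8 called members per direction per age step, and up to 4 called genes of a wider list. Members named for groups without overlap and Fancd2os were added after their values were seen. Exon lengths and overlaps come from GENCODE M21 and promoters from RefSeq, both GRCm38, while counts were made on mm9.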

Additional observations from a re-analysis of the deposited data

Results flagged for a closer look

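In 7 of the 76 groups of 4 libraries examined, all at d2, 1 library lay far from the other 3 (a gap over 0.829 of the group's range), which chance does in about 1 of 20 groups. Tex15 in knockout replicate 2 was at 101.5 CPM, against 2.04 to 2.60 CPM in the other knockout libraries. Knockout replicate 3 was lowest for Fancb at 7.81 CPM, against 14.3 to 15.5 CPM, lowest for Rad51d at 6.50 CPM, against 14.1 to 15.6 CPM, and highest for Atr at 547.6 CPM, against 482 to 489 CPM. In heterozygous cells Rad54b was at 48.0 CPM in replicate 4, against 69.7 to 73.3 CPM, Nbn at 58.0 CPM in replicate 3, against 45.9 to 46.7 CPM, and Mus81 at 5.32 CPM in replicate 2, against 9.72 to 10.2 CPM.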

How the results depend on the processing

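Counts of members called at e18.5 between genotypes were 1 as reported, 2 with DESeq2 and 2 with no filter (Brca2 added), and at d2 1 as reported and 2 with DESeq2 (Rad50 added). The replicate block gave 3 at e18.5 (Brca2, adjusted p = 0.0163, and Rad50, adjusted p = 0.0315, added). Same-numbered libraries had correlations of -0.267 to 0.117 in their deviations from the group means, and 2 of 6, 5 of 6 and 2 of 8 libraries at e16.5, e18.5 and d2 correlated best with their own number, so the numbers were not taken as pairing. Over all genes the counts between genotypes were, at e16.5, 1 as reported, 22 with DESeq2, 2 with no filter and 0 with all 20 libraries in 1 fit. At e18.5 they were 422 as reported and 152 with all 20 libraries in 1 fit. At d2 they were 430 as reported, 768 with DESeq2, 235 with the block and 770 with all 20 libraries in 1 fit. For the interaction of e18.5 and e16.5 they were 18 as reported, 68 with DESeq2 and 72 with only the compared groups fitted, and for d2 and e18.5 98 as reported and 369 with DESeq2. The cause of these shifts was not tested.

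Leaving out 1 library at a time, the e16.5 genotype comparison called 0 to 0 members and 1 to 25 genes, the e18.5 one 0 to 2 members and 274 to 505 genes, and the d2 one 1 to 3 members and 187 to 573 genes. With age in heterozygous cells 5 to 14 members were called at e18.5 and 18 to 21 at d2, and over all genes 1739 to 4077 and 8249 to 9829. Interactions gave 0 to 0 and 0 to 1 members and 3 to 38 and 31 to 226 genes. No named value reversed its direction in the alternatives run. Besides Fancb, Atr and the members above, Atm, Bard1, Brca1, Fancc, Rad51c, Rad54b and Rpa1 lost their call at e18.5 without 1 or more heterozygous embryonic libraries. Low members such as Rpa3, Xrcc2 and Mus81 stayed under 13 CPM, where differences of the size seen in Fancd2 are less precisely measured.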
